A study of Mus musculus with 14 samples.

Results

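The genes described here handle thyroid hormone inside brown adipose tissue (BAT). They are 7 genes out of the 55471 genes in the deposited count table, taken by their symbols: Dio2, Slc16a10, Slco1a1, Thra, Thrb, Klf9 and Hr. All 7 were found, each as a single Ensembl gene, and all 7 were tested. BAT is a fat depot specialised in making heat. It was profiled by RNA sequencing in 10-week-old male mice, wild type (WT) or carrying AdC3KO, a knockout of CLSTN3B in adipocytes. Every mouse, in all groups, had been acclimated to 30 °C, a temperature at which a mouse needs little extra heat, for 2 weeks. Some mice of each genotype stayed there and gave 3 WT and 3 AdC3KO libraries, and the others were moved to 4 °C for 6 h and gave 4 WT and 4 AdC3KO libraries. The sources used here do not name the Cre driver of the knockout. The knockout label was checked on Clstn3, the locus of CLSTN3B, in counts per M (CPM). At 30 °C the WT libraries averaged 206.6 ± 23.2 CPM and the AdC3KO libraries 15.8 ± 1.31 CPM (SD, n = 3), and at 4 °C they averaged 1110 ± 97.4 and 65.8 ± 11.9 CPM (SD, n = 4).

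Thyroid hormone reaches cells mostly as thyroxine (T4), a prohormone, and is carried through the membrane by transporters. Inside the cell the selenoenzyme type 2 deiodinase, the product of Dio2, removes an iodine from T4 to make the active hormone T3, and T3 binds the nuclear receptors encoded by Thra and Thrb. In BAT, noradrenaline released on cold exposure raises cAMP, and Dio2 is a well-known cAMP-induced gene whose product makes T3 locally for the heat programme, Ucp1 included. Slc16a10 (MCT10) and Slco1a1 (OATP1A1) encode transporters that accept thyroid hormones among other substrates. Klf9 and Hr are genes that T3 is known to induce in several tissues. Klf9 encodes a transcription factor and Hr (hairless) a corepressor that binds the thyroid hormone receptors.

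Promoter windows of GRCm38.p6 from RefSeq were matched to 5 of the 7 genes, Thra and Hr being the others. They are shown for Dio2 and Slco1a1, the genes of the set that cold raised most, and for the T3 target Klf9, with the 250 bases before the RefSeq start, 5′ to 3′. Capitals mark TGACGTCA, the cAMP response element, or its shorter form TGACG, and AGGTCA, the motif that binds one receptor in a hormone response element, on either strand. An AGGTCA on the reverse strand reads TGACCT. The windows are chr12:90739039-90739288 on the minus strand for Dio2, chr6:141946963-141947212 on the minus strand for Slco1a1 and chr19:23140976-23141225 on the plus strand for Klf9.
Dio2: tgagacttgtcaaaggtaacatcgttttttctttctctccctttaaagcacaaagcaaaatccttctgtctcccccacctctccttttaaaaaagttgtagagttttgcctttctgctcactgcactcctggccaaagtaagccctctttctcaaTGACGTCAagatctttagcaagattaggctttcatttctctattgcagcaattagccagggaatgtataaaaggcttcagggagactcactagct
Slco1a1: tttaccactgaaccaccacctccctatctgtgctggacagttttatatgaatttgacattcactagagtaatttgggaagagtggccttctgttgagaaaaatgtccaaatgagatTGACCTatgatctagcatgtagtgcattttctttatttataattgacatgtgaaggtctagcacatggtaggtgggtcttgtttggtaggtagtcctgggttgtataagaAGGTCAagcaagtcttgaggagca
Klf9: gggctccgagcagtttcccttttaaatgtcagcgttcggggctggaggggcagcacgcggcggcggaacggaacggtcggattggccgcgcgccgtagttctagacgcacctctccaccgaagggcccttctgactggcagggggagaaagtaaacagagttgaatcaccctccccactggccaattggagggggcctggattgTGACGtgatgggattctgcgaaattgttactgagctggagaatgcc

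The Dio2 window held the full TGACGTCA, 95 bases before the start, and 588 of 32851 windows of 300 bases (250 before and 50 after a start) in the RefSeq table held it (1.79%). This palindrome contains TGACG on both strands. The Klf9 window held TGACG 46 bases before the start, as did 20.8% of all windows. Slco1a1 had AGGTCA at 134 bases before the start on the reverse strand and at 24 bases on its own strand, a motif found in 16.3% of windows. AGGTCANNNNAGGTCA, the pair of direct repeats 4 bases apart that thyroid hormone receptors favour, was in none of the 6 windows of these genes and in 5 of all windows. The RefSeq start of Dio2 lies 600 bases upstream of the gene's start in the annotation used for its coordinates and exon length, whereas the 2 annotations shared the start for Slco1a1 and Klf9. Among the 386 tested genes with a TGACGTCA in a window, 170 were higher at 4 °C in WT (44.0%), beside 3719 of all 11303 tested genes with a window (32.9%), and the median log2 fold change was 0.23 beside 0.01. In AdC3KO 43.5% of them were higher, beside 32.85%. For the shorter TGACG, 39.95% of the 3810 tested genes with it were higher in WT, with a median of 0.14, and 40.4% in AdC3KO. Genes with the full TGACGTCA are among those 3810. For AGGTCA, 32.2% of the 1725 tested genes with it were higher in WT, with a median of -0.01, and 31.8% in AdC3KO. These shares are descriptions without a test, and a match of letters is not evidence of binding.

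Gene counts per library were 19.9 to 29.0 M. The brown adipocyte marker list was detected in full (11 of 11 genes) in every group. Its summed level in WT was 5398 to 6630 CPM at 30 °C and 16540 to 20160 CPM at 4 °C. In AdC3KO it was 5286 to 7493 and 17660 to 23200 CPM. With cold in WT, Ucp1, Ppargc1a, Elovl3, Pparg and Fabp3 of this list were higher. Ebf2 (log2 fold change -1.03), Prdm16 (-0.46) and Cidea (-0.38) were lower. The skeletal muscle list (14 genes) had a mean above 0 on the log2 CPM scale in 5 libraries: WT at 30 °C library 3, AdC3KO at 30 °C libraries 1 and 2, WT at 4 °C library 2 and AdC3KO at 4 °C library 3. Their summed muscle CPM was 38.8 to 527.5, and it was 4.17 to 7.09 in the rest. A list of 12 interferon-response genes had a mean above 4 in 3 libraries at 4 °C. They were WT library 4, with a summed level of 1663 CPM, and AdC3KO libraries 1 and 2, with 753.6 and 415.6 CPM. The cut at 4 did not fall in a wide gap. AdC3KO library 2 at 4 °C had a mean of 4.399. WT library 3 at 30 °C, the highest below the cut, had a mean of 3.987 and a sum of 409.9 CPM. The sums of other lists moved with temperature. The summed pan-adipocyte list was 8416 to 9951 CPM in WT at 30 °C and 11930 to 19320 CPM at 4 °C. In AdC3KO it was 8070 to 10180 and 12070 to 16320 CPM. Fabp4 alone was 4473 to 14200 CPM across libraries. With cold in WT, Fabp4 (log2 fold change 0.95), Pparg (0.89) and Cidec (0.47) of this list were higher. Adipoq (-0.64) was lower, and Plin1 (0.19) and Lipe (-0.35) did not pass. The mean log2 CPM of the list overlapped, at 9.762 to 9.983 in WT at 30 °C and 9.904 to 10.509 at 4 °C. In AdC3KO this mean was 9.775 to 10.003 and 9.831 to 10.169. A red blood cell list was 275.9 to 358.0 and 326.4 to 598.6 CPM in WT. In AdC3KO that list was 244.6 to 384.8 and 496.3 to 622.0 CPM. The summed macrophage list (9 genes) was 163.5 to 199.3 CPM in WT at 30 °C and 272.6 to 568.2 CPM at 4 °C, and in AdC3KO 161.9 to 245.0 and 216.2 to 380.9 CPM. The summed endothelial list (7 genes) was 573.4 to 764.1 CPM in WT at 30 °C, below all 4 WT libraries at 4 °C, the highest of which had 1064 CPM, and in AdC3KO 586.4 to 658.3 and 1070 to 1258 CPM. Its genes did not move 1 way with cold in WT. Pecam1 (log2 fold change 1.08), Kdr (0.90) and Cdh5 (0.53) were higher. Tek (-0.99), Emcn (-1.04) and Egfl7 (-0.36) were lower, and Vwf was -0.10. The mean log2 CPM of the list overlapped, at 5.797 to 6.113 in WT at 30 °C and 5.915 to 6.175 at 4 °C. A neuron and Schwann cell list (7 genes) was 61.4 to 102.7 and 45.3 to 80.6 CPM, with Dbh at 0 throughout and Th at 0 in the cold libraries. The part of these shifts in the cold changes below was not tested.

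Cold changed 6 of the 7 genes in WT, with 4 higher (Dio2, Slco1a1, Slc16a10 and Klf9) and 2 lower (Thra and Thrb), and the same 6 in the same directions in AdC3KO. Hr did not pass the test in either genotype. The test was the quasi-likelihood F-test of edgeR with Benjamini-Hochberg adjustment at 0.05 over 15949 tested genes, and every adjusted p below comes from it unless DESeq2 is named. The background was high: 61.4% of all tested genes passed in WT (30.6% higher, 30.8% lower) and 63.0% in AdC3KO (31.0% higher, 32.1% lower). A count of 6 in 7 genes is therefore read only as a list of which genes changed. Slco1a1 is in this count and in the next, although it passed the filter on low counts through the 4 °C groups alone. For those same 6 genes no library at 4 °C overlapped the libraries at 30 °C of its genotype, while 60.3% and 64.1% of all tested genes were separate in this way. In bulk tissue fewer cells of a type and less RNA per cell cannot be told apart, which applies to each fall and rise given here.

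**Figure D1:**
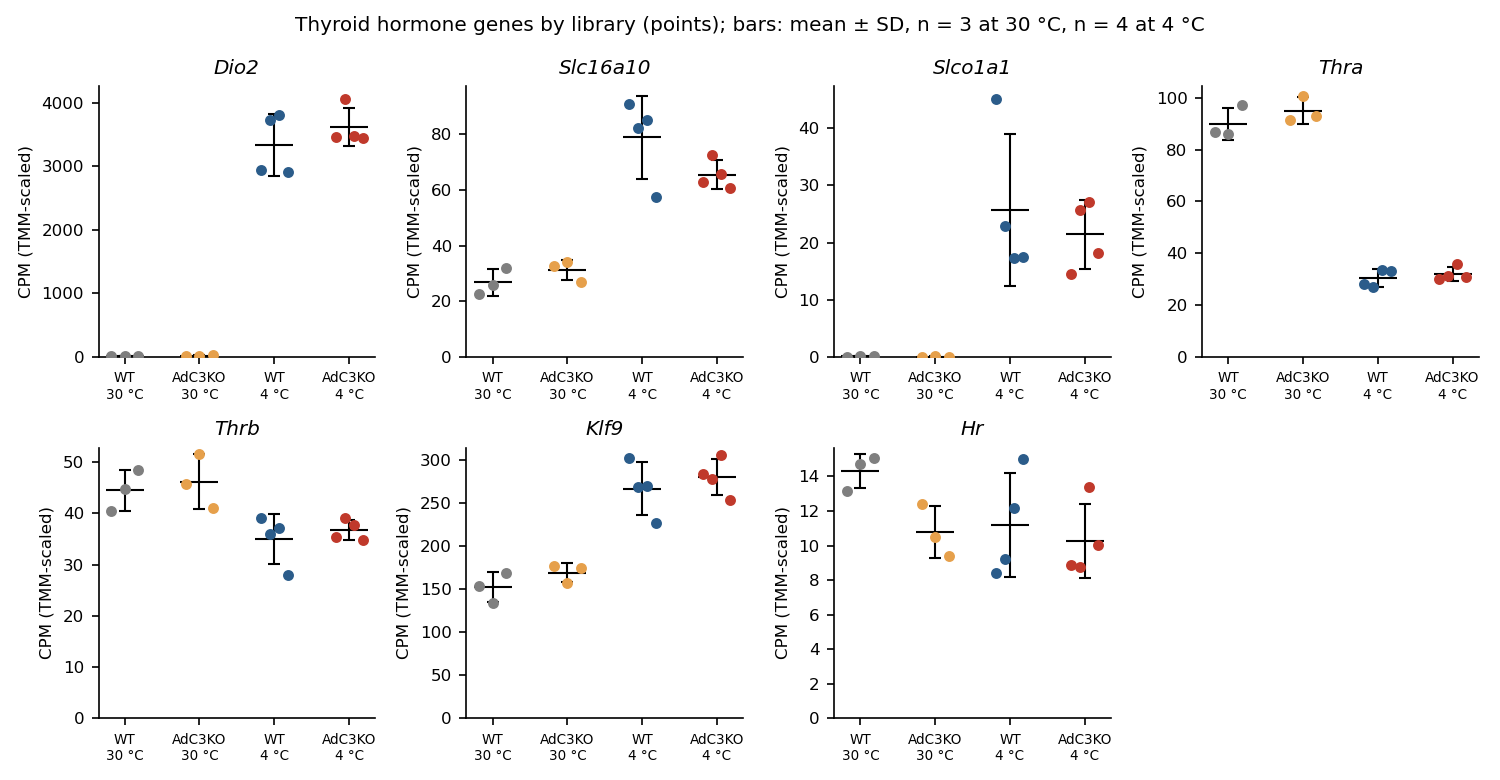
Counts per M (CPM, scaled with TMM factors) of the 7 genes in each of the 14 libraries (points), by genotype and temperature, with the mean and SD of each group (n = 3 at 30 °C, n = 4 at 4 °C). Dio2 stood between 12.4 and 22.04 CPM in all 6 libraries at 30 °C and between 2906 and 4064 CPM in all 8 libraries at 4 °C, and the libraries of the 2 genotypes overlapped at each temperature except for Hr at 30 °C.

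Dio2 (ENSMUSG00000007682) lies on chromosome 12 of GRCm38, from 90724552 to 90738438 on the minus strand, with 5815 bases of exon. It encodes the enzyme that activates T4. At 30 °C the WT libraries held 15.2, 12.4 and 16.7 CPM of it and the AdC3KO libraries 15.5, 13.98 and 22.04 CPM. The cold WT libraries held 2939, 3730, 3802 and 2906 CPM and the cold AdC3KO libraries 3469, 4064, 3481 and 3453 CPM. Every cold library was far above every library at 30 °C, and the genotypes overlapped at both temperatures. Cold raised it 226-fold in WT, a log2 fold change of 7.82 (SE 0.22, adjusted p = 9.44e-13), and 211-fold in AdC3KO, or 7.72 (SE 0.22, adjusted p = 9.66e-13). By the size of the rise it ranked 15 of the tested genes in WT and 18 in AdC3KO. Per kb of exon, the scale on which genes can be compared, Dio2 went from place 7795 to place 52 of 15932 genes in WT and from 7258 to 56 in AdC3KO. A 100-base stretch of its exons is shared with Gm26512, a long non-coding RNA gene on the opposite strand, which stood at 0.446 ± 0.386 CPM in WT at 4 °C (SD, n = 4) and moved the other way with cold (log2 fold change -2.09, adjusted p = 0.00289).

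The other deiodinases were near or at 0. Dio1, whose enzyme also makes T3, had 1 count in all 14 libraries together, and Dio3, whose enzyme inactivates T4 and T3, had 32. Both were below the filter on low counts.

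Slco1a1 (ENSMUSG00000041698; chromosome 6, 141907282 to 141946962, minus strand) showed a rise of the same order from a lower base. In raw counts it had 1, 2 and 3 reads in the WT libraries at 30 °C and 0, 2 and 0 in the AdC3KO libraries. At 4 °C there were 766, 437, 365 and 427 reads in WT and 391, 597, 556 and 432 in AdC3KO. The gene was thus barely detected at 30 °C and detected with ease in every cold library. In CPM the cold libraries held 45.2, 22.9, 17.3 and 17.4 in WT, library 1 being the highest, and 14.6, 25.7, 27.2 and 18.2 in AdC3KO. With library sizes taken into account, the summed counts gave a ratio of 316 in WT (1995 against 6 reads, exact 95% interval 145 to 862.5) and of 886.5 in AdC3KO (1976 against 2 reads, 245 to 7325), and these intervals cover counting error only. The fitted log2 fold changes were 8.28 (SE 0.62) and 9.53 (SE 0.72). They depend on how the few reads at 30 °C are smoothed, and in AdC3KO the value was 12.0 without library 2 of the 30 °C group, the only one of that group with reads. Slco1a1 passed the filter on low counts through the 4 °C groups alone, so that it had to differ, and its adjusted p is not given. It is a gene best known from liver and kidney. A list of 10 genes of these organs summed to 0.704 to 1.44 CPM in WT and 0.818 to 1.22 CPM in AdC3KO at 30 °C, and to 0.577 to 1.06 and 0.517 to 0.929 CPM at 4 °C. Ttr, Fgb, Tat and Umod of that list were at 0 in all 14 libraries, and the others had 4 (Slc34a1) to 206 (Apoa2) reads in all. Their part in the Slco1a1 values was not tested. Slco1a1 lies 17.44 Mb from Clstn3 on the same chromosome.

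Slc16a10 (ENSMUSG00000019838; chromosome 10, 40033532 to 40142258, minus strand), a transporter of aromatic amino acids and iodothyronines, measured 22.5, 25.7 and 32.1 CPM in the WT libraries at 30 °C and 32.6, 34.0 and 27.0 CPM in those of AdC3KO. With cold the WT libraries had 91.1, 82.2, 85.0 and 57.3 CPM and the AdC3KO libraries 63.0, 72.5, 65.8 and 60.5 CPM. All cold libraries were above all libraries at 30 °C, and WT library 4, the one with the high interferon list, was the lowest of its group. The rise was 2.95-fold in WT (1.56 on the log2 scale, SE 0.16, adjusted p = 3.47e-07) and 2.10-fold in AdC3KO (1.07, SE 0.15, adjusted p = 1.59e-05). Of the 7 genes it had the lowest unadjusted p for a difference between these responses, 0.0338 (log2 difference -0.49, 95% interval -0.94 to -0.04, adjusted p = 1), which does not pass over all genes.

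Both receptor genes were lower in the cold. Thra (ENSMUSG00000058756; chromosome 11, 98740638 to 98769006, plus strand) gives the T3 receptor alpha and, by alternative splicing, a form that does not bind T3, and gene counts join these forms. At 30 °C the WT libraries held 87.0, 86.1 and 97.2 CPM and the AdC3KO libraries 91.5, 100.9 and 93.0 CPM. After cold these were 28.2, 26.8, 33.5 and 33.2 CPM for WT and 30.2, 31.3, 36.0 and 30.6 CPM for AdC3KO. The 2 temperatures were widely apart and the genotypes overlapped. Thra was 2.96-fold lower in the cold in WT (-1.56 on the log2 scale, SE 0.10, adjusted p = 1.58e-09) and 2.97-fold lower in AdC3KO (-1.57, SE 0.10, adjusted p = 1.41e-09). Thra shares 263 bases of exon (5.7%) with Nr1d1, a clock repressor gene on the opposite strand. Without a stated strand setting, reads from that stretch cannot be assigned to 1 of the 2 genes. Nr1d1 itself went from 134.5 ± 3.51 to 65.1 ± 11.4 CPM in WT (-1.05 on the log2 scale, adjusted p = 2.72e-05) and from 133.8 ± 8.65 to 55.3 ± 12.8 CPM in AdC3KO (-1.27, adjusted p = 3.54e-06; SD, n = 3 and 4). Its part in the Thra values was not tested.

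Thrb (ENSMUSG00000021779; chromosome 14, 17660261 to 18038090, plus strand), the gene of the T3 receptor beta, stood at 40.5, 44.7 and 48.5 CPM in the WT libraries at 30 °C and at 45.8, 51.7 and 41.1 CPM in the AdC3KO ones. The WT libraries at 4 °C had 39.0, 35.9, 37.1 and 27.9 CPM and the AdC3KO libraries 35.4, 39.1, 37.7 and 34.8 CPM. The groups were separate by a narrow gap in both genotypes. This made Thrb 1.27-fold lower in WT (-0.35 on the log2 scale, SE 0.11, adjusted p = 0.0136) and 1.26-fold lower in AdC3KO (-0.33, SE 0.11, adjusted p = 0.0182). The size of the Thrb difference moved with the scaling, and its call with the libraries used. With upper-quartile scaling the values were -0.59 in WT and -0.56 in AdC3KO, and with library totals only -0.71 and -0.72, all passing, while these scalings moved the median of all genes to -0.27 and -0.29, and to -0.38 and -0.45. Without the 5 libraries with muscle transcripts the values were -0.30 (adjusted p = 0.117) and -0.18 (adjusted p = 0.485), the latter with a single AdC3KO library left at 30 °C and assumed to vary like the other groups, and without the 3 libraries with a high interferon list the WT value was -0.24 (adjusted p = 0.0648). Leaving out single libraries ended it in WT without library 3 at 30 °C (-0.28, adjusted p = 0.0745), and in AdC3KO without library 2 at 30 °C (-0.24, adjusted p = 0.115), library 1 at 4 °C (-0.29, adjusted p = 0.0716) or library 4 at 4 °C (-0.29, adjusted p = 0.0673).

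Within a library, the ratio of Thra to Thrb per kb of exon does not depend on how library sizes are scaled. It was 3.45, 3.09 and 3.22 in WT and 3.20, 3.13 and 3.63 in AdC3KO at 30 °C, and 1.16, 1.20, 1.45 and 1.91 in WT and 1.37, 1.29, 1.53 and 1.41 in AdC3KO at 4 °C. On this scale Thra was above Thrb in every library, by more in all libraries at 30 °C than in any at 4 °C. The order rests on the exon lengths: undivided counts gave a ratio of 1.92 to 2.26 at 30 °C and of 0.724 to 1.19 at 4 °C, below 1 in 7 of the 8 cold libraries. The log2 ratio dropped by 1.21 in WT and by 1.25 in AdC3KO (exact permutation test, two-sided, p = 0.0571 in each genotype). This p is the doubled one-sided p, and it is the smallest that this form of the test allows with 3 against 4 libraries. WT library 4 at 4 °C, with the highest ratio of its group, is the library with the lowest Thrb.

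**Figure D2:**
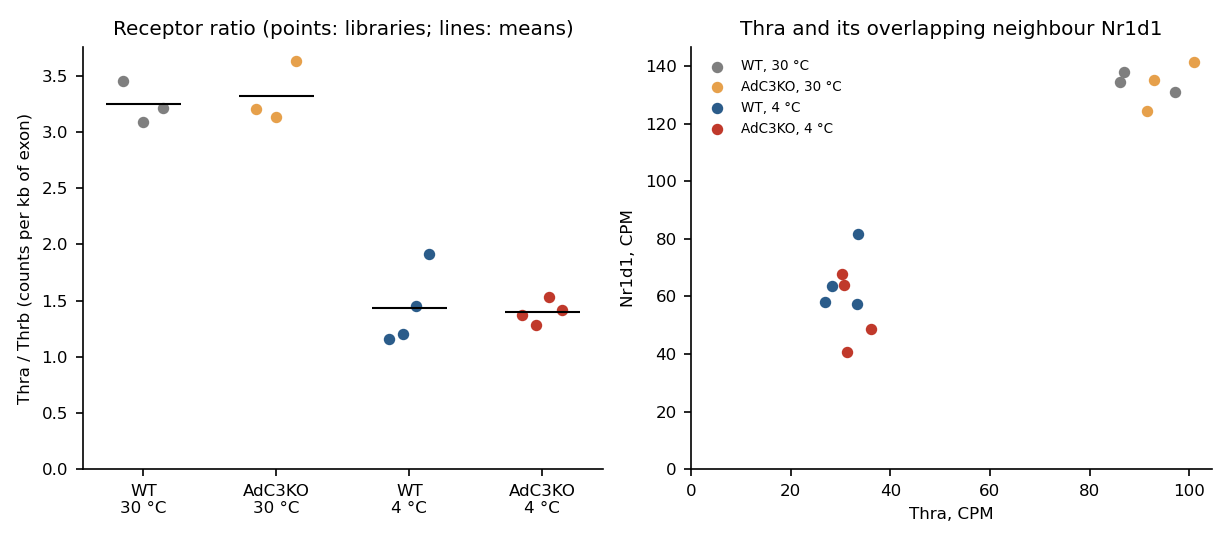
On the left, the ratio of Thra to Thrb counts per kb of exon in each library (points) and its group mean (lines). On the right, Thra CPM (x axis) against the CPM of Nr1d1, whose exons overlap those of Thra (y axis), 1 point per library. The ratio was 3.09 to 3.63 in the 6 libraries at 30 °C and 1.16 to 1.91 in the 8 libraries at 4 °C, and both Thra and Nr1d1 were lower in every cold library than in every library at 30 °C.

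Of the T3-induced genes, Klf9 rose and Hr did not pass the test. Klf9 (ENSMUSG00000033863; chromosome 19, 23141226 to 23168134, plus strand) had 153.8, 134.7 and 169.3 CPM in the WT libraries at 30 °C and 177.0, 157.1 and 174.4 CPM in the AdC3KO libraries. The cold libraries had 302.4, 268.6, 270.8 and 227.6 CPM for WT and 283.7, 278.8, 306.5 and 254.3 CPM for AdC3KO. All cold libraries were above all others, with WT library 4 again the lowest of its group. Klf9 rose 1.75-fold in WT (0.81 on the log2 scale, SE 0.11, adjusted p = 7.34e-06) and 1.66-fold in AdC3KO (0.73, SE 0.11, adjusted p = 2.07e-05). With library totals alone as the scale, which moved the median of all genes to -0.38 in WT and -0.45 in AdC3KO, the Klf9 values were 0.45 and 0.34, and both still passed.

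Hr (ENSMUSG00000022096; chromosome 14, 70552212 to 70573548, plus strand) held 13.2, 14.7 and 15.1 CPM in the WT libraries at 30 °C and 12.4, 10.5 and 9.41 CPM in the AdC3KO libraries. At 4 °C its values were 8.43, 9.22, 12.2 and 15 CPM for WT and 8.88, 8.78, 13.4 and 10.03 CPM for AdC3KO. The temperatures overlapped in both genotypes. WT library 4 had the highest value of its group, and the other 3 WT cold libraries were below the lowest WT value at 30 °C. On the log2 scale Hr differed by -0.35 in WT (SE 0.19, adjusted p = 0.126) and by -0.07 in AdC3KO (SE 0.19, adjusted p = 0.758), 4 °C minus 30 °C. In WT a fall passed without library 4 (-0.51, adjusted p = 0.0204), without the 3 libraries with a high interferon list (-0.51, adjusted p = 0.0161) and under 4 other settings given in the closing section. Library 4 of WT at 4 °C also had the highest summed level of the macrophage list, 568.2 CPM beside 272.6 to 273.6 CPM in the rest of its group. The part of these cells and of the interferon genes in the values of Hr, Thrb, Slc16a10 and Klf9 in that library was not tested.

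No difference between AdC3KO and WT passed the test for any of the 7 genes. This held at 30 °C, at 4 °C and for the genotype by temperature interaction, by edgeR (0 of 7) and by DESeq2 (0 of 7), and the edgeR counts at an unadjusted p below 0.05 were 0, 0 and 1. Few genes passed anywhere: 0.0439% of all tested genes at 30 °C, 0.0502% at 4 °C and 0% for the interaction. The intervals below describe the spread within this fit of all 14 libraries. For Dio2 the log2 difference of AdC3KO minus WT was 0.22 (95% interval -0.16 to 0.59) at 30 °C and 0.11 (-0.19 to 0.42) at 4 °C, and the difference of cold responses was -0.10 (-0.58 to 0.38). Without the 5 libraries with muscle transcripts, which leaves 1 AdC3KO library at 30 °C, with 22.04 CPM, the Dio2 difference at 30 °C was 0.67, outside that interval, and the difference of cold responses -0.49, and neither passed (adjusted p = 1). At 4 °C the differences were 0.07 (-0.12 to 0.26) for Thra, 0.07 (-0.15 to 0.30) for Thrb, 0.07 (-0.14 to 0.28) for Klf9, -0.13 (-0.51 to 0.25) for Hr, -0.27 (-0.56 to 0.02) for Slc16a10 and -0.26 (-0.92 to 0.40) for Slco1a1. At 30 °C they were 0.08 (-0.14 to 0.29) for Thra, 0.05 (-0.21 to 0.31) for Thrb, 0.15 (-0.09 to 0.39) for Klf9 and 0.22 (-0.12 to 0.56) for Slc16a10. For Slco1a1 at 30 °C, with 6 reads against 2, the interval was too wide to bound anything useful (-5.58 to 2.17). Hr at 30 °C was the 1 case in which the genotypes did not overlap, AdC3KO being lower (-0.41, 95% interval -0.84 to 0.03, unadjusted p = 0.0632, adjusted p = 1), and 7.29% of all tested genes were separate in that comparison. At 4 °C the genotypes overlapped for all 7 genes, and 2.27% of all tested genes were separate.

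**Figure D3:**
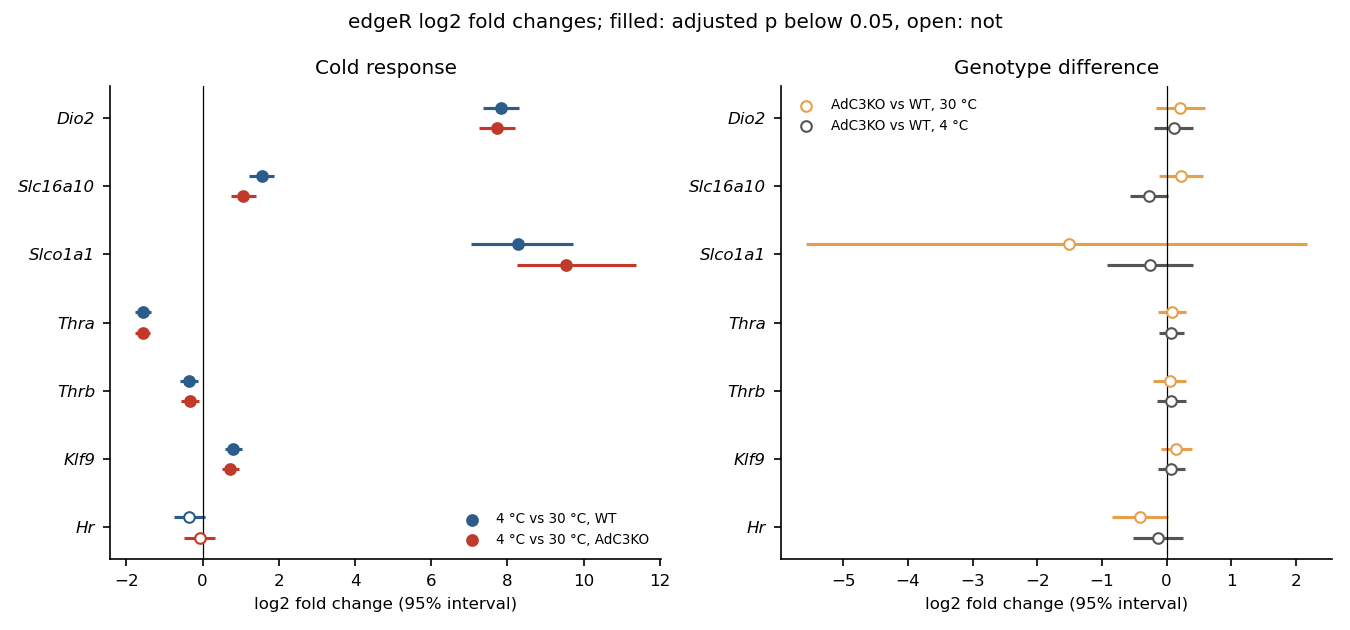
Log2 fold changes of the 7 genes (x axis) with 95% intervals, for 4 °C against 30 °C in each genotype (left) and for AdC3KO against WT at each temperature (right). Filled points passed an adjusted p of 0.05 by edgeR and open points did not. The cold points of the 2 genotypes lie side by side for Dio2, at 7.82 and 7.72, and for Thra, at -1.56 and -1.57, and every point on the right is open, with the widest interval for Slco1a1 at 30 °C (-5.58 to 2.17).

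Set beside each other per kb of exon, the order of the genes changed with temperature. At 30 °C in WT it ran from Klf9 (31.7 CPM per kb) through Thra (19.5), Thrb (6.02), Slc16a10 (3.64), Dio2 (2.54) and Hr (2.07) to Slco1a1 (0.0143), and only Dio2 and Hr, as neighbours, had overlapping libraries. AdC3KO at 30 °C had the same order, with overlap between Slc16a10 (4.24) and Dio2 (2.95) instead. At 4 °C in WT Dio2 led with 575 ± 83.9 CPM per kb (SD, n = 4), followed by Klf9 (55.5) and Slc16a10 (10.7). Thra (6.60), Slco1a1 (4.87) and Thrb (4.72) came next with overlapping libraries, and Hr (1.62) was last. In AdC3KO at 4 °C Dio2 (622 ± 51.3, SD, n = 4), Klf9 (58.3), Slc16a10 (8.90) and Thra (6.95) were each separate from their neighbour, Thrb (4.96) and Slco1a1 (4.06) overlapped, and Hr (1.48) was again last. Cold thus moved Dio2 from the fifth place to the top in both genotypes and placed Slc16a10 above Thra.

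**Figure D4:**
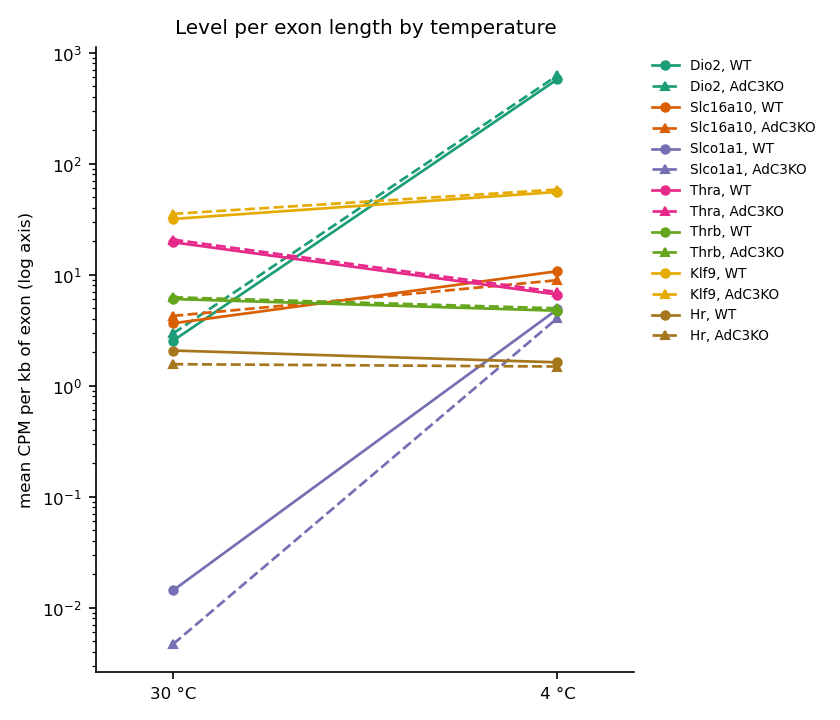
Mean CPM per kb of exon (log axis) of the 7 genes at 30 °C and 4 °C, 1 line per gene and genotype (solid with circles for WT, dashed with triangles for AdC3KO). The Dio2 lines climb past those of all other genes, from 2.54 to 575 in WT, and the Thra lines descend from 19.5 to 6.60 through the rising lines of Slc16a10.

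The genes most like each member over the 14 libraries were found by the root-mean-square difference of log2 CPM after centring each gene, among 9359 genes with a mean of at least 5 CPM. For Dio2 they were Acot5 (0.39), Elovl3 (0.41) and Fgf21 (0.55), and for Slco1a1 Acot5 (0.45), Elovl3 (0.53) and Dio2 itself (0.61). In WT at 30 °C Acot5 had 0 CPM, Fgf21 0.0956 CPM and Elovl3 0.787 CPM, beside 14.8 CPM for Dio2. These log2 CPM carry a prior count of 2, which narrows changes from so low a level. The fitted log2 fold change with cold in WT was 11.59 for Acot5, beside 7.82 for Dio2. Slc16a10 was nearest to Slc10a3 (0.13), Txlng (0.14) and Polr3d (0.15), and Thra to Fut8 (0.10), Radil (0.12) and Ppcdc (0.13). Thrb was nearest to Rtn4ip1, Xrcc3 and Zfp866, Klf9 to Zfp639, Lancl2 and Epc2, all within 0.10, and Hr to Trp53i13, Rab13 and Mcm7 at 0.20 to 0.21. These distances are descriptions, dominated by each gene's own difference between the temperatures, and carry no test.

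The wider machinery was read from a list of 77 genes in 9 roles that includes the 7 genes, of which 67 were tested. With cold, 32 were higher and 16 lower in WT (71.6% changed, median log2 fold change 0.32) and 33 higher and 17 lower in AdC3KO (74.6%, median 0.34), beside 61.4% and 63.0% and medians of -0.03 and -0.06 for all tested genes. Leaving out the 7 genes, 28 of 60 were higher and 14 lower in WT, and 29 and 15 in AdC3KO. No gene of the list passed for genotype at either temperature or for the interaction, with 1, 0 and 2 at an unadjusted p below 0.05 by edgeR, and DESeq2 called 0 in each.

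Deiodinase 2 is a selenoprotein, and 3 of 6 genes for inserting selenocysteine rose in WT: Secisbp2 (log2 fold change 1.146 in WT, 1.18 in AdC3KO), whose product binds the selenocysteine insertion element, Sephs2 (0.997 and 0.996), which makes the selenium donor, and Sepsecs (0.86 and 0.74), which completes the selenocysteine tRNA. Pstk, the kinase of the step before Sepsecs, fell (-1.30 and -1.36). Of this role 66.7% changed in each genotype, beside 61.4% of all tested genes in WT and 63.0% in AdC3KO. The enzyme's lifetime is set by ubiquitination, and all 6 genes of that role changed in both genotypes, beside the same 61.4% and 63.0%. Of the ligase side, Wsb1, the adaptor that recognises the enzyme, was higher (1.19 and 1.23), as was the conjugating enzyme Ube2g2 (1.19 and 1.19). Of the deubiquitinases that rescue it, Usp33 rose (1.74 and 1.63) and Usp20 fell (-0.96 and -0.67). Ube2j1 (0.93 and 1.06) and the ligase gene Marchf6 (0.45 and 0.33), chosen after their values were seen, rose as well.

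Of 14 transporters in the list 10 were tested, with 6 higher and 2 lower in each genotype. Thus 80.0% changed, beside 61.4% of all tested genes in WT and 63.0% in AdC3KO. Slc3a2, the heavy chain of the amino acid exchangers that also carry iodothyronines, went from 32.8 ± 3.41 to 588.2 ± 73.8 CPM in WT (log2 fold change 4.17, and 4.11 in AdC3KO). Its light chains rose as well, Slc7a8 (LAT2) by 3.92 and 4.00 and Slc7a5 (LAT1) by 3.30 and 2.97 on the log2 scale. Slco4a1 fell (-1.79 and -1.18). Slco1a4, of the same family as Slco1a1, averaged 0.0255 CPM at 30 °C and 0.766 CPM at 4 °C in WT, and 0.146 and 1.14 CPM in AdC3KO. Like Slco1a1, it passed the filter on low counts through the 4 °C groups alone, so that no test of it is given. Both are nevertheless in the counts of higher genes, of the 6 transporters and of the whole list. Slco1a5 had no read in any library and Slco1a6 had 5 in all. Slco4a1 and Slco1a4 were chosen after their values were seen, and how reads shared by related Slco1a genes were counted is not stated in the sources.

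**Figure D5:**
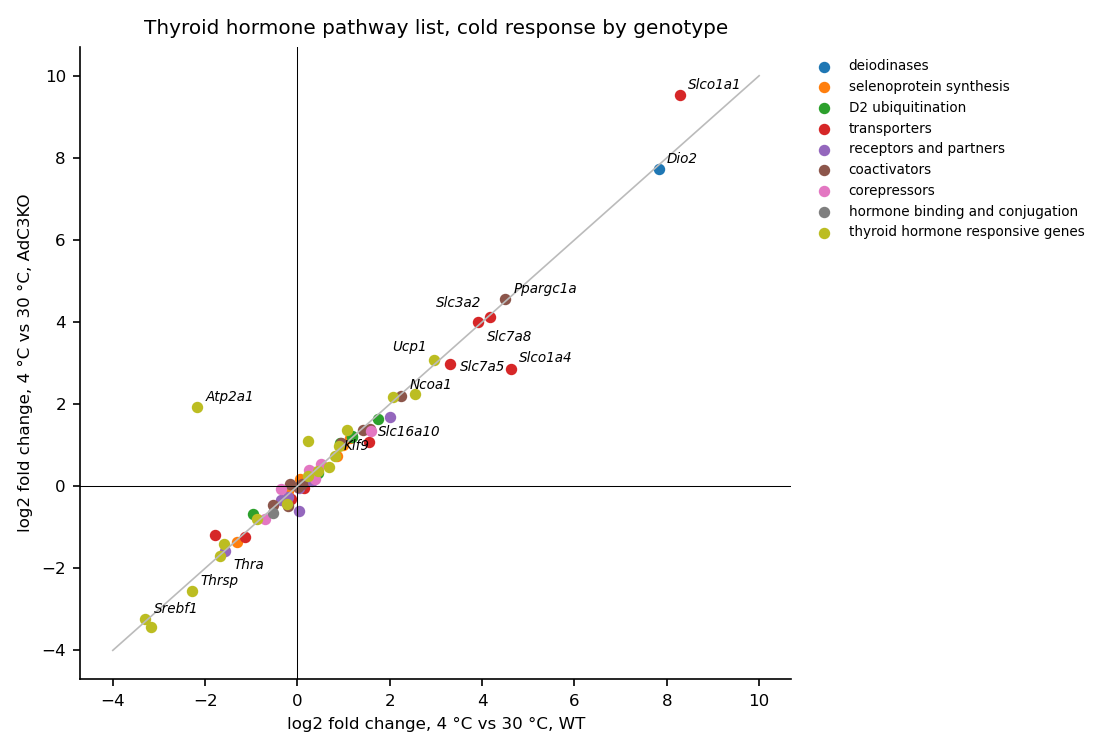
Log2 fold change with cold in WT (x axis) against that in AdC3KO (y axis) for the 67 tested genes of the thyroid hormone list, coloured by role, with the line of equal values. Most genes lie along the line, among them Slc3a2 at 4.17 and 4.11 and Ppargc1a at 4.50 and 4.56, and Atp2a1, which did not pass in either genotype, lies away from it at -2.18 and 1.92.

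Among receptors and their partners, 1 of 8 rose and 3 fell in each genotype. The share changed was below the 61.4% of all tested genes in WT and the 63.0% in AdC3KO. The riser was Itgb3 (2.00 and 1.68), a subunit of the integrin that binds T4 at the cell surface, and the fallers were Thra, Thrb and Rxra. The fall of Rxra, the retinoid X receptor that pairs with the T3 receptors, was small (-0.25, adjusted p = 0.039 in WT and -0.39, adjusted p = 0.00273 in AdC3KO). Of 10 coactivators, 5 were higher and 1 lower in WT (60.0% changed, beside 61.4% of all tested genes), and 5 and 2 in AdC3KO (70.0%, beside 63.0%). The fallers were Ncoa3 (-0.53 and -0.46) and, in AdC3KO, Ncoa2 (-0.48, adjusted p = 0.000676, and -0.21, adjusted p = 0.0812 in WT). Ppargc1a, the coactivator PGC-1alpha of the heat programme, rose most (4.50 and 4.56), followed by Ncoa1 (2.25 and 2.21), Ncoa4 (1.57 and 1.39) and Med1 (1.41 and 1.37), a Mediator subunit that contacts nuclear receptors, and by Crebbp (0.94 and 1.05). Of the 7 corepressor genes, Hr included, 4 rose and 1 fell in each genotype (71.4% changed, beside the same 61.4% and 63.0%). Tbl1xr1 (1.59 and 1.34) and Gps2 (0.50 and 0.54), subunits of the NCoR complex, were higher, and Hdac3, its histone deacetylase, was lower (-0.70 and -0.81). Tbl1x, a relative of Tbl1xr1, was higher too (0.36 and 0.34). The core subunit gene Ncor1 was 0.38 in WT (adjusted p = 0.0109) and 0.17 in AdC3KO (adjusted p = 0.212). Itgb3, Ncoa2, Ncoa3, Crebbp and Tbl1x were chosen after their values were seen.

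The 18 genes known to respond to T3 in some tissue did not move one way: 7 rose and 6 fell in WT, 8 and 6 in AdC3KO. The shares changed were 72.2% and 77.8%, beside 61.4% and 63.0% of all tested genes. Ucp1, the uncoupling protein, rose from 1625 ± 216.1 to 12690 ± 1202 CPM in WT (SD, n = 3 and 4; 2.97, and 3.09 in AdC3KO), and Pdk4, a kinase that restrains pyruvate oxidation, rose by 2.54 and 2.25 on the log2 scale. Srebf1, a regulator of fat synthesis, fell (-3.30 and -3.25), as did Dbp, a clock output gene (-3.18 and -3.44). Thrsp, the thyroid hormone responsive protein gene named after its values were seen, fell in both genotypes (-2.28 and -2.56). Atp2a1, a calcium pump of skeletal muscle, was 0.279 to 67.5 CPM across libraries and is itself on the muscle list. Of hormone binding and conjugation genes only Sult1a1, a sulfotransferase, was tested, and it was lower (-0.53, adjusted p = 0.012 in WT and -0.66, adjusted p = 0.00258 in AdC3KO). Transthyretin (Ttr) had no read, and Crym, which binds T3 in the cytosol, had 29 reads in all.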

How the data were processed

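Total RNA was purified with TRIzol and RNeasy columns and treated with DNase, and libraries came from the NEBNext Ultra II kit, per the labels' protocols. Trimmomatic for trimming, FastQC for quality, STAR for alignment to GRCm38/mm10 and HTSeq for counting are the steps of the authors, per the series' design text and the submitters' processing notes. Versions, annotation release and strand setting are not given in these sources. The deposited table holds raw counts, whole numbers per Ensembl gene in 14 libraries, and 5 summary lines that name no gene, which stayed out of library sizes and tests. Of these, reads outside genes made up 5.95% to 8.19% of a library and reads on more than 1 gene 5.53% to 6.03%, and the other 3 lines were 0. Symbols (for 55144 of 55471 identifiers), coordinates and exon lengths (the union of exons) came from GENCODE M21.

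The edgeR fit (version 4.0.16, R 4.3.3) used filterByExpr by group at a minimum count of 10 (15949 genes), TMM scaling and robust quasi-likelihood estimation of the 4 group means over all 14 libraries. TMM factors were 1.107 to 1.213 at 30 °C and 0.822 to 0.954 at 4 °C, so that scaling and temperature moved together. CPM carry these factors, and log2 fold changes carry the small prior count that edgeR adds. The SE is the coefficient without that prior divided by the square root of F, and 95% intervals use this SE around that coefficient, so that they are not centred on the printed fold change of a gene with few reads. DESeq2 1.42.0 was an alternative, with other scalings, filters, a replicate block and left-out libraries. Scaling by library totals only was added after seeing the data. Nothing in the labels states that libraries are from different animals, so the p-values speak of spread among libraries, which may be technical. Any 2 libraries of a group differed beyond sampling noise (chi-square per degree of freedom 18.59 or more), and each was counted once.

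The genes, the list of 77 genes, the marker lists and the tests were chosen with earlier results of these data known. The genes named are the 7 genes in every comparison, Clstn3, per role of the list the 4 genes with the largest cold change in WT among those called with a mean of at least 5 CPM, and for each of the 7 the 3 genes most like it. Not every gene this names, or that the counts cover, is reported here. Other genes outside it are said to have been chosen after their values were seen, with these exceptions. Nr1d1 and Gm26512 are named for exon bases shared with Thra and Dio2. Dio1, Dio3, Slco1a5, Slco1a6, Ttr, Crym, Atp2a1 and single genes of the marker lists are outside it too, without that mark.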

Additional observations from a re-analysis of the deposited data

Results flagged for a closer look

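Dio2 in AdC3KO at 4 °C was 4064 CPM in library 2, away from 3453 to 3481 CPM in the other 3 libraries of the group. The gap to the nearest library was 0.955 of the whole range of the group, above the critical value of 0.829 for 4 libraries. A total of 14 groups (7 genes in the 2 groups of 4 libraries) were looked at in this way, and chance flags about 1 in 20. Without that library the Dio2 rise in AdC3KO still passed, as it did under every alternative run.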

How the results depend on the processing

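The counts of called genes, of the 7 and of the list, and the Thra to Thrb ratio stayed within 1.5 times their values under every alternative run. Dio2, Slc16a10, Thra and Klf9 kept direction and call with cold in both genotypes under all of them. Slco1a1 is in these counts too. It passed the filter on low counts through the 4 °C groups alone, so that its unchanged call is no check on the processing. Leaving out single libraries, the log2 fold change with cold ranged in WT from 7.71 to 7.92 for Dio2, 1.45 to 1.71 for Slc16a10, -1.61 to -1.50 for Thra and 0.73 to 0.89 for Klf9. Hr passed in WT with upper-quartile scaling (-0.59, adjusted p = 0.0111 by edgeR), library totals only (-0.69, 0.00663), no filter (-0.44, 0.0455) and a filter at a mean of 5 CPM (-0.51, 0.0252), and in AdC3KO with library totals only (-0.47, 0.0488). Upper-quartile scaling and library totals moved the median of all genes with cold in WT from -0.03 to -0.27 and -0.38, and the calls from 4879 higher and 4908 lower to 3640 and 6415, and to 3098 and 7023. In AdC3KO the calls moved from 4937 and 5113 to 3737 and 6542, and to 2985 and 7396. DESeq2 called 21 genes for genotype at 4 °C where edgeR called 8.

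The replicate numbers did not pair the libraries: the deviations of 19 same-numbered pairs correlated between -0.34 and 0.30, with 1 above 0.1. With the replicate block, 6 of the 7 genes passed for cold in WT and 5 in AdC3KO, where Thrb was -0.26 (adjusted p = 0.0519 by edgeR), and 0 for genotype or interaction.

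All values that changed sign were values that had not passed. Without the interferon-high libraries they were 0.15 for Hr with cold in AdC3KO, for genotype at 4 °C -0.00 (Dio2), -0.035 (Thrb) and 0.24 (Hr), and for the interaction 0.12 (Thra) and -0.072 (Thrb). Without the libraries with muscle transcripts they were -0.052 (Thrb, genotype at 30 °C) and -0.044 (Thra, genotype at 4 °C). The Thra interaction was 0.004 by DESeq2, 0.002 with upper-quartile scaling, 0.006 with RLE scaling and 0.003 with the 5 CPM filter, and the Thrb interaction -0.017 with library totals only. Leaving out single libraries gave -0.204 to 0.043 for Hr with cold in AdC3KO, for genotype at 30 °C -0.001 to 0.344 (Dio2) and -0.035 to 0.131 (Thrb), for genotype at 4 °C -0.409 to 0.173 (Slco1a1), -0.024 to 0.145 (Thrb) and -0.258 to 0.040 (Hr), and for the interaction -0.230 to 0.114 (Dio2), -0.065 to 0.054 (Thra), -0.061 to 0.108 (Thrb) and -0.163 to 0.010 (Klf9). The cause was not tested. Slco1a1 had no value for genotype at 30 °C when only those groups were fitted, and the interaction has no such fit. With 8 reads in 6 libraries, Slco1a1 at 30 °C is limited by depth.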
